A study of Mus musculus with 12 samples.

Results

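miR-31 is made from the Mir31 precursor, whose hairpin is cut by Drosha and then Dicer into a duplex of 2 small RNAs, one from each arm. The array carries both, as mmu-miR-31 (the 5′ arm, now named miR-31-5p) and mmu-miR-31* (the 3′ arm, now named miR-31-3p). They were taken by these exact names and are 2 of the 611 mouse miRNAs on the array, which also carries 39 viral miRNAs. Both were among the 256 mouse miRNAs that entered the fit and among the 110 above the signal floor on every array. They were chosen because their difference between the genotypes was stable and their signal was higher with tunicamycin time in earlier results of these data, so every value of those comparisons below is a description with its error, and no test is given for it.

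The cells were embryonic fibroblasts (MEFs) from mice with the C57BL/6 background. In XBP1-deficient cells (XBP1KO, here knockout) there were 3 groups, which were untreated or had 2 ug/mL tunicamycin for 12 h or 24 h, and wild type cells (XBP1WT) had the same 3 groups. Each group had 2 arrays, from separate experiments per the series' design text, which makes 12 arrays in all. The labels used here do not say whether a genotype is 1 line or several embryos, or how XBP1 was removed, so the errors given measure only the spread between these arrays. Xbp1 mRNA is not measured by a miRNA array, so the genotype labels were not checked against it.

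A miRNA guides Argonaute to mRNAs that pair with its seed, bases 2 to 8 from its 5′ end, and the paired mRNAs are repressed. miR-31 is known from human breast cancer cells as a repressor of genes of cell movement and metastasis, and its human gene is often lost together with the tumour suppressor CDKN2A. XBP1 is made as an active transcription factor once IRE1, a sensor in the endoplasmic reticulum, has spliced its mRNA, and it then drives genes that help proteins fold. Tunicamycin stops N-linked glycosylation and thereby sets off this stress response.

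The mature sequences are shown because the arms carry different seeds, printed in capitals, so that a level of one says nothing of the targets of the other. They are RefSeq's, on GRCm38.p6. The 5′ arm lies at chr4:88910614-88910635 and the 3′ arm at chr4:88910577-88910599, both on the minus strand.
mmu-miR-31 (miR-31-5p): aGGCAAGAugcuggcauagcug
mmu-miR-31* (miR-31-3p): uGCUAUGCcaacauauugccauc
The 5′ arm has 22 bases and the 3′ arm 23. Neither 7-base seed is shared with another mature miRNA among the 1738 in the RefSeq table, so neither arm has a family member on that criterion.

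The whole hairpin is shown with both arms in capitals to place them in the precursor. It spans 106 bases at chr4:88910557-88910662 on the minus strand, with the 5′ arm at bases 28 to 49 and the 3′ arm at bases 64 to 86.
Mir31 hairpin: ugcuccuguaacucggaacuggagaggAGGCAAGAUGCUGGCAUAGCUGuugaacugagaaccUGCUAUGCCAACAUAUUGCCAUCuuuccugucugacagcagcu
In the order of the RefSeq gene table of that assembly, Mir31 lies between the long noncoding RNAs Gm49890 and Gm34568. Beyond them are the interferon gene Ifne on one side and Wincr1, Mtap, Cdkn2a and Cdkn2b on the other.

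Each arm was read by 2 probes, with 10 spots per probe on each array. The software called both arms detected on 12 of 12 arrays, and none of their spots was saturated. Outlier spots, 5 and 4 of 120 for the miR-31 probes and 3 and 6 of 120 for the miR-31* probes, were left out. The median spot-to-spot coefficient of variation was between 6.59% and 10.8% over the 4 probes. The dimmest was A_54_P3474, for miR-31*, at 6.90 scanner units on the first 12 h knockout array, where its coefficient of variation was 26.7%. All its spots were well above background on 9 of the 12 arrays. The other 3 were knockout arrays, both at 12 h, with 0 of 10 such spots, and the second at 24 h, with 4 of 10. On every array all spots of the other 3 probes were well above background.

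Arrays differed widely in total signal. The summed signal of all mouse miRNAs was 185304 and 187401 units on the untreated knockout arrays, against 95743 and 108961 on their wild type counterparts, and lay between 15850 and 80997 on the 8 tunicamycin arrays. All untreated arrays were on 1 slide and all tunicamycin arrays on another, so the slide and the treatment cannot be told apart. Knockout and wild type arrays of the same replicate number shared a scan of 1 slide, so the genotypes can be set against each other within a scan.

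Before any scaling, the summed probe signal of miR-31 was 342 and 348 units in untreated, 78.8 and 166 in 12 h and 117 and 148 in 24 h knockout cells. In wild type cells it was 631 and 671 untreated, 182 and 325 at 12 h and 136 and 396 at 24 h. Knockout arrays were below wild type arrays without overlap when untreated and at 12 h, while at 24 h the dimmer wild type array lay below the brighter knockout array.

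miR-31* gave 105 and 113 units in untreated, 24.8 and 55.7 in 12 h and 49.0 and 45.3 in 24 h knockout cells. In wild type cells it gave 190 and 216 untreated, 67.5 and 126 at 12 h and 62.6 and 142 at 24 h. For this arm the genotypes did not overlap in any condition. In both genotypes the signals of both arms were highest on the untreated arrays, as was the total.

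**Figure D1:**
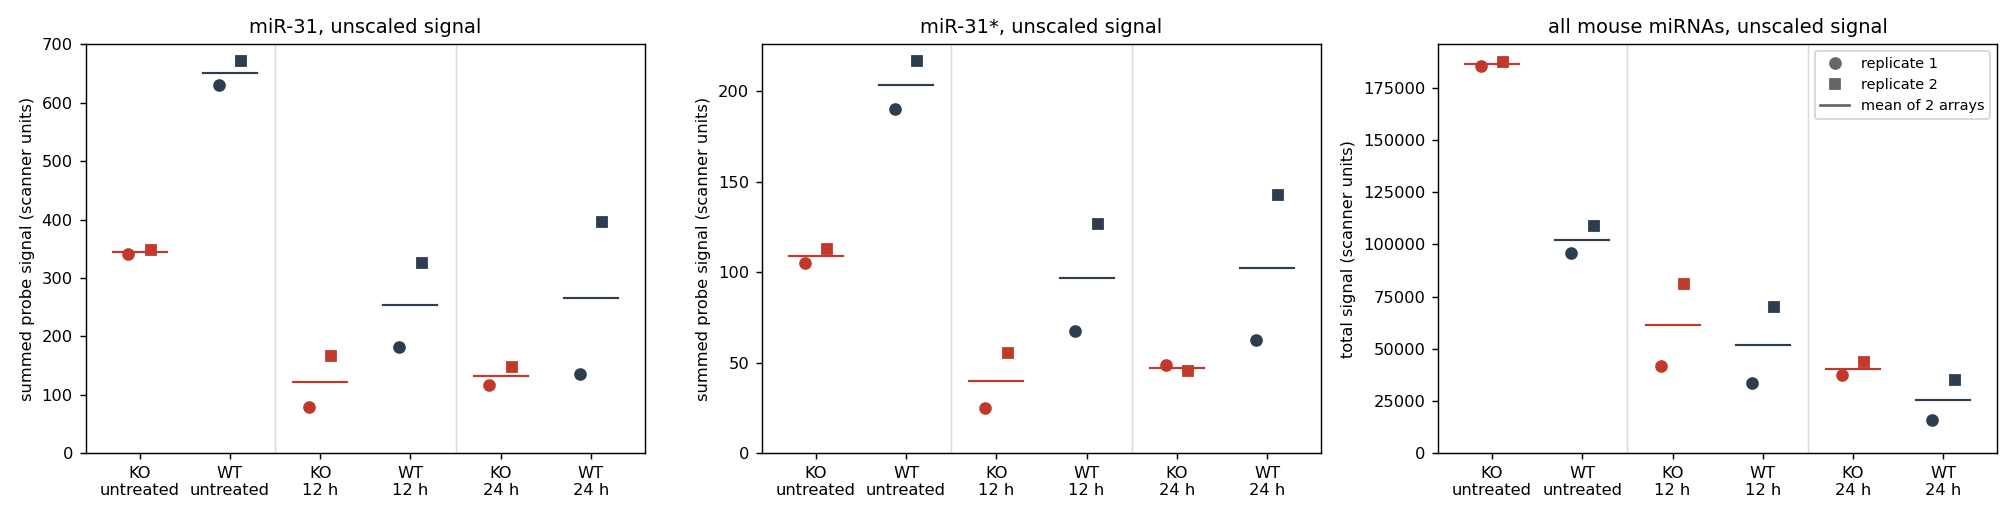
Unscaled summed probe signal (scanner units) of miR-31 and miR-31* and the total over all mouse miRNAs (scanner units), each point 1 array, with knockout (KO, red) left of wild type (WT, dark) in each condition and a line at the mean of 2 arrays. The group means of both arms are lower in knockout than in wild type cells in each condition, although the untreated knockout arrays have the highest totals, 185304 and 187401 units.

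To remove differences of whole arrays, each array was divided by the 75th percentile of the 95 mouse miRNAs detected on all 12 arrays, and log2 values were taken. On this scale miR-31 was 6.78 and 6.79 in untreated, 7.10 and 6.89 in 12 h and 7.39 and 7.64 in 24 h knockout cells. In wild type cells it was 8.52 and 8.38 untreated, 8.61 and 8.55 at 12 h and 9.01 and 9.21 at 24 h. The highest knockout array was below the lowest wild type array whatever the treatment.

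miR-31* had log2 scaled signals of 5.08 and 5.16 in untreated, 5.43 and 5.31 in 12 h and 6.14 and 5.93 in 24 h knockout cells. In wild type cells they were 6.79 and 6.75 untreated, 7.18 and 7.19 at 12 h and 7.89 and 7.74 at 24 h. All 6 knockout arrays again lay below all 6 wild type arrays. The pooled standard deviation within groups was 0.12 for miR-31 and 0.09 for miR-31* on the log2 scale.

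**Figure D2:**
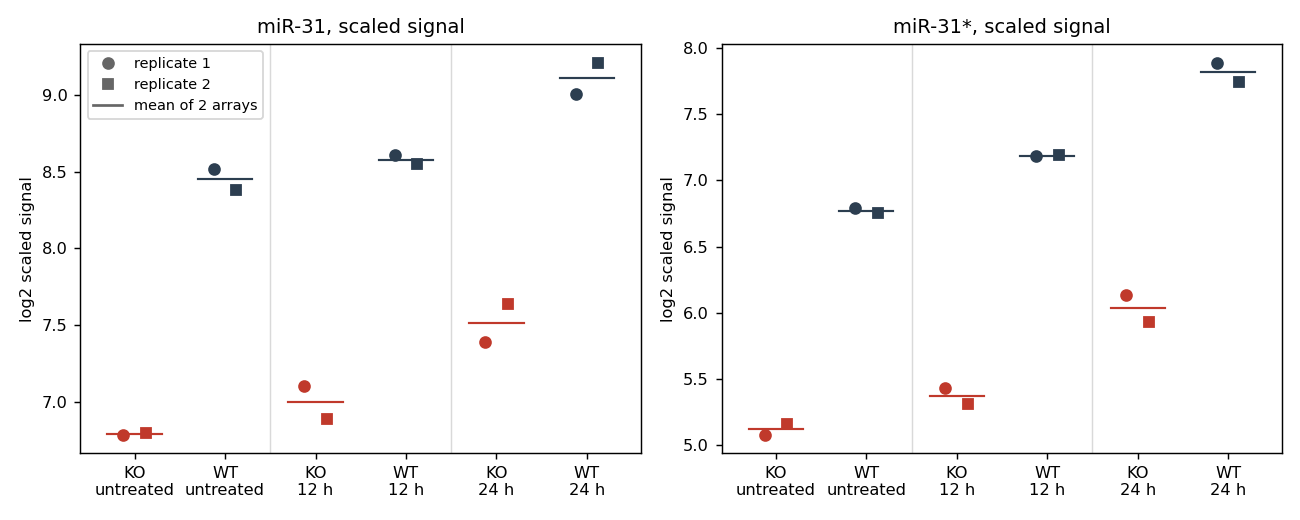
Log2 scaled signal of miR-31 and miR-31* by group, each point 1 array (circle replicate 1, square replicate 2), with a line at the mean of 2 arrays. For both arms the 6 knockout arrays lie below the 6 wild type arrays, and within each genotype the 24 h arrays are the highest.

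The order of the 6 group means was the same for both arms, from untreated, 12 h and 24 h knockout cells up to untreated, 12 h and 24 h wild type cells. No neighbouring groups in that order overlapped. The smallest gap, 0.03 on the log2 scale, was between the untreated and 12 h wild type arrays for miR-31. The 95% interval of 12 h minus untreated included 0 in knockout cells for both arms and in wild type cells for miR-31. This describes the error and is no test, since the members were chosen on these comparisons. The sign of 12 h minus untreated depended on the scaling, also for miR-31* in wild type cells.

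miR-31 was lower in knockout than in wild type cells by a log2 difference of -1.66 untreated, -1.59 at 12 h and -1.60 at 24 h (SE 0.13 each, limma fit over the 256 miRNAs). These are 3.17-fold, 3.0-fold and 3.03-fold lower signals in the knockout cells. The mean over the 3 conditions was -1.62 (SE 0.07), with a 95% interval from -1.79 to -1.44.

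miR-31* was lower in knockout than in wild type cells by a log2 difference of -1.65 untreated, -1.81 at 12 h and -1.78 at 24 h (SE 0.13 each). These are 3.13-fold, 3.51-fold and 3.43-fold lower signals. The mean over the 3 conditions was -1.75 (SE 0.07), with a 95% interval from -1.92 to -1.57. After scaling, each of these differences was many times the spread between the arrays of a group. Without scaling, the SE at each time was 0.60 for miR-31 and 0.57 for miR-31*.

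Knockout arrays below wild type arrays without overlap were common over all miRNAs tested, at 35.5% when untreated, 32.0% at 12 h and 16.8% at 24 h. The share with no overlap in any of the 3 conditions was 9.77% (25 of 256), and both arms of miR-31 are among these 25. Since the members were picked on this contrast, nothing is read from their place in it. The median knockout minus wild type difference over all 256, as the mean of the 3 conditions, was -0.08 on the log2 scale.

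The difference was there in every scan. In the 6 pairs of knockout and wild type arrays that shared a scan, miR-31 was lower in knockout cells in 6 of 6, with log2 differences between -1.74 and -1.51, and miR-31* in 6 of 6, between -1.88 and -1.59. All 4 probes, taken singly, were lower in knockout cells in 6 of 6 pairs. The 2 miR-31 probes had mean differences of -1.61 and -1.62, and the 2 miR-31* probes of -1.78 and -1.73. The -1.78 is that of A_54_P3474, which was near background on some knockout arrays.

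The size of the difference depended on the processing. With normexp background correction it was -1.41 untreated, -0.999 at 12 h and -1.04 at 24 h for miR-31 and -1.19, -0.91 and -0.90 for miR-31*. With normexp the median difference over all miRNAs tested moved down, by -0.34 when untreated, -0.47 at 12 h and -0.48 at 24 h. The members' differences moved the other way and became smaller in size than in the main fit, and why was not tested. With unscaled signals the difference of the members was smaller, between -1.42 and -0.22 for miR-31 and between -1.65 and -0.35 for miR-31*, and knockout cells were still lower in 6 of 6 pairs for both arms. The smallest unscaled differences came from the first 24 h pair, whose wild type array had the lowest total signal of all, at 15850 units, against 37308 units on its knockout partner. Without scaling, the median difference over the 110 miRNAs above the floor moved up by 0.75 when untreated, 0.49 at 12 h and 0.71 at 24 h.

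**Figure D3:**
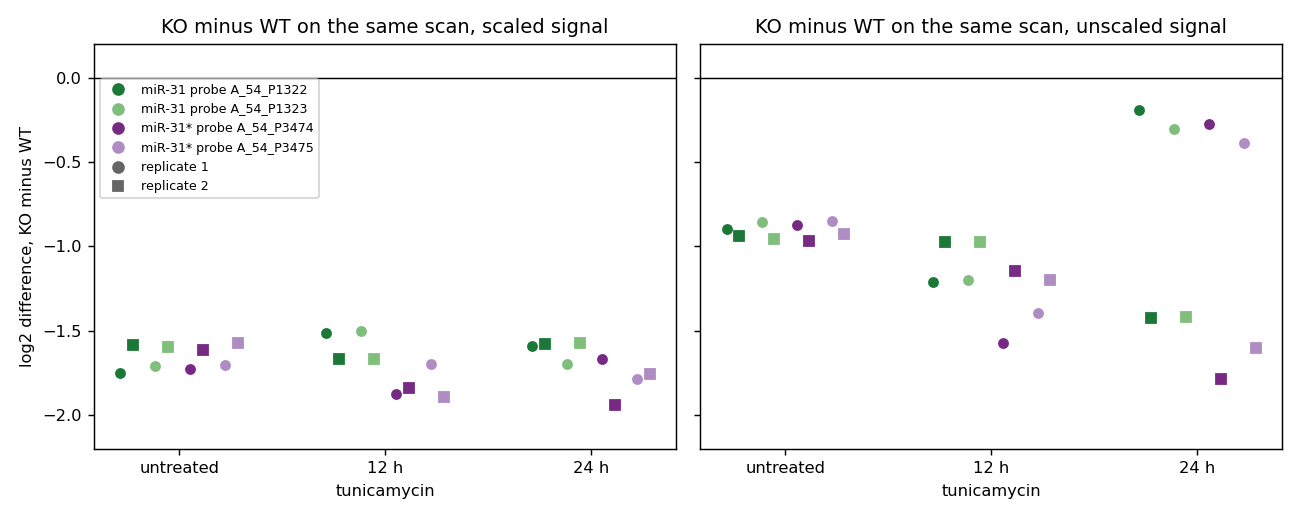
Log2 difference, knockout minus wild type, between arrays that shared a scan, for each of the 4 probes in each condition, with scaled signals on the left and unscaled signals on the right (circle replicate 1, square replicate 2). All points lie below 0, with the scaled ones between -1.94 and -1.502.

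As a share of all mouse miRNA signal on the array, miR-31 was 0.184% and 0.186% in untreated, 0.189% and 0.205% in 12 h and 0.313% and 0.337% in 24 h knockout cells. In wild type cells it was 0.659% and 0.616% untreated, 0.539% and 0.466% at 12 h and 0.860% and 1.13% at 24 h. On this scale too the genotypes did not overlap in any condition, while in wild type cells the 12 h arrays were below the untreated ones.

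With tunicamycin time, the scaled signals of both arms were higher at 24 h than in untreated cells in both genotypes. The log2 difference of 24 h minus untreated for miR-31 was 0.73 in knockout and 0.66 in wild type cells (SE 0.13 each), a 1.65-fold and a 1.58-fold higher signal. For miR-31* it was 0.91 in knockout and 1.04 in wild type cells (SE 0.13 each), 1.88-fold and 2.06-fold. With unscaled signals the direction turned, to -1.39 and -1.21 in knockout and -1.49 and -1.10 in wild type cells for miR-31 and miR-31*, while the median of the 110 miRNAs above the floor moved by -2.12 in both genotypes.

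At 12 h the sign of the difference from untreated cells depended on the scaling for both arms in both genotypes. For miR-31 the differences were 0.21 in knockout and 0.13 in wild type cells, and for miR-31* 0.25 and 0.41 (log2, SE 0.13 each). With median scaling they were larger, at 0.69 and 0.44 for miR-31 and 0.74 and 0.73 for miR-31*, and with quantile normalization they were negative, at -0.54 and -0.97 for miR-31 and -0.54 and -0.41 for miR-31*. Of the 15 alternatives tried, 11 kept the sign for each arm in knockout cells and 10 in wild type cells. These counts include alternatives that could change only the error and not the difference.

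Between 12 h and 24 h, miR-31 was higher at 24 h by 0.52 in knockout and 0.53 in wild type cells, and miR-31* by 0.66 and 0.63 (log2, SE 0.13 each). Over the 110 miRNAs above the floor, the median of 24 h minus 12 h was 0.47 in knockout and 0.35 in wild type cells. The value of miR-31 in knockout cells thus lay near the median of all. The 12 h and 24 h arrays shared a slide and, by replicate number, a scan. Within the scans, miR-31 was higher at 24 h by 0.29 and 0.75 in knockout and by 0.40 and 0.66 in wild type cells, and miR-31* by 0.70 and 0.62 in knockout and by 0.71 and 0.55 in wild type cells. The size depended on the scaling. With quantile normalization it was 1.36 in knockout and 1.64 in wild type cells for miR-31 and 1.54 and 1.58 for miR-31*, and with median scaling it was 0.20 and 0.29 for miR-31 and 0.34 and 0.38 for miR-31*. With unscaled signals, miR-31 in wild type cells had a difference of -0.07.

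Arrays at 24 h above untreated arrays without overlap made up 10.2% of all miRNAs tested in knockout and 20.7% in wild type cells. At 12 h above untreated the shares were 36.7% and 34.0%, and at 24 h above 12 h they were 31.6% and 27.3%. Both arms were without overlap in all of these, which the choice of members had set. Over the 110 miRNAs above the floor, the median of 24 h minus untreated was -0.05 in knockout and -0.13 in wild type cells. The median of 12 h minus untreated was -0.48 and -0.45, and that of 24 h minus 12 h was 0.47 and 0.35.

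The difference between the genotypes' responses to tunicamycin was small beside its error. The knockout response minus the wild type response of miR-31 was 0.08 at 12 h (95% interval -0.34 to 0.50) and 0.07 at 24 h (-0.36 to 0.49). For miR-31* it was -0.16 at 12 h (-0.59 to 0.26) and -0.13 at 24 h (-0.55 to 0.29). The intervals reach 0.50 in size for miR-31 and 0.59 for miR-31*, so they do not show that the responses were alike.

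The genotype difference of miR-31 spanned 0.08 on the log2 scale from its smallest to its largest value over the 3 conditions, and that of miR-31* spanned 0.16. The median span over the 110 miRNAs above the floor was 0.54, with values from 0.04 to 1.86. A small span is what the members were chosen for, and it depended on the processing. The span of miR-31 was 0.43 with quantile normalization or total mouse signal scaling and 0.33 with the percentile over all mouse miRNAs, and that of miR-31* was 0.18, 0.21 and 0.42 under the same 3 settings.

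Whether the arms moved together can be read on each array without scaling, since any factor of the array cancels. The log2 signal of miR-31* minus that of miR-31 was -1.70 and -1.63 in untreated, -1.67 and -1.58 in 12 h and -1.25 and -1.71 in 24 h knockout cells. In wild type cells it was -1.73 and -1.63 untreated, -1.43 and -1.36 at 12 h and -1.12 and -1.48 at 24 h. The size of this number depends on the probes and is not a ratio of molecules, so only its changes are compared.

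The arm difference hardly differed between untreated knockout and wild type cells, by 0.02 (95% interval -0.41 to 0.44). It was lower in knockout than in wild type cells by -0.22 at 12 h (-0.65 to 0.20) and by -0.18 at 24 h (-0.60 to 0.24). From untreated to 24 h it changed by 0.19 in knockout (-0.24 to 0.61) and by 0.38 in wild type cells (-0.04 to 0.81). These intervals come from a fit without pairing. Within the scans, knockout minus wild type was 0.03 and 0.004 untreated, -0.24 and -0.21 at 12 h and -0.13 and -0.23 at 24 h, so that both pairs were below 0 at each tunicamycin time. With the scan as a block, an alternative added after seeing the data, the interval was from -0.71 to 0.26 at 12 h and from -0.66 to 0.30 at 24 h. With normexp background correction the knockout minus wild type values were 0.09 at 12 h and 0.13 at 24 h, so the direction depended on the background. The 24 h replicates were far apart, with the first replicate higher than the second in both genotypes.

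**Figure D4:**
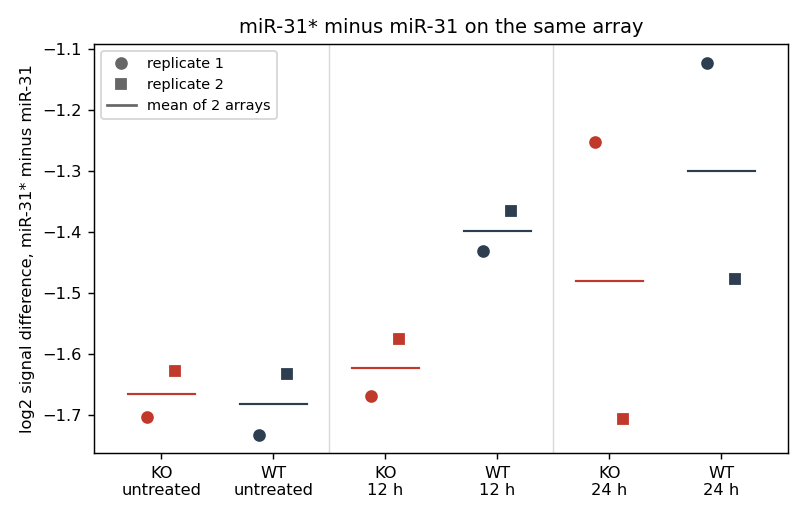
Log2 signal of miR-31* minus that of miR-31 on the same array, by group, each point 1 array, with a line at the mean of 2 arrays. The untreated arrays of both genotypes lie between -1.73 and -1.63, and the 24 h arrays spread from -1.71 to -1.12.

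For 5 other miRNAs, both arms were above the floor on every array. Their change in arm difference, knockout minus wild type as the mean of the 3 conditions, had a median of -0.13 and lay between -0.73 and 0.02, and that of miR-31 was -0.13 (SE 0.10). The brightest of these pairs were miR-199a-3p and miR-199a-5p, which had knockout minus wild type differences of 0.58 and 0.38, and miR-140 and miR-140*, with -0.77 and -0.74. The next were miR-129-3p and miR-129-5p, with -0.81 and -0.94. miR-29b and miR-29b* had 0.36 and -0.37, the only one of the 4 pairs named here whose arms differed in sign.

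Over the 110 miRNAs above the floor, 18 (16.4%) had knockout arrays below wild type arrays without overlap in all 3 conditions and 13 (11.8%) had them above, and over all 256 the share above was 6.25%. The 3 lowest mean differences among the 18 were those of miR-155, at -1.83, and of miR-31* and miR-31. miR-155, a miRNA of activated immune cells, changed its genotype difference more across conditions, from -2.82 untreated to -1.34 at 12 h and -1.33 at 24 h. On the untreated knockout arrays it was close to the floor, at 3.44 and 3.41 against 3.33 (log2). The highest among the 13 were those of miR-199b* at 1.93, miR-361 at 1.23 and miR-221, a repressor of the cell cycle inhibitor p27, at 1.18.

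The miRNA whose log2 scaled signal was most like that of miR-31 over the 12 arrays was miR-31*, with a Pearson correlation of 0.98 (Spearman 0.98), the highest of 109 candidates above the floor, whose median was 0.14. Next came miR-155 at 0.93, miR-720 at 0.82, miR-92a at 0.79 and miR-148a at 0.76. For miR-31* the list held miR-155 at 0.91, miR-720 at 0.87, miR-92a at 0.85 and miR-19b at 0.79 after miR-31. All points share the arrays, their scaling and the genotype difference on which miR-31 was chosen, so these are descriptions of likeness.

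Of the similar miRNAs, miR-92a and miR-19b, both of the miR-17-92 cluster, had genotype differences of -0.51 and -0.44 as the mean of the 3 conditions. Their 24 h minus untreated differences were 0.52 and 0.30 in knockout and 0.59 and 0.47 in wild type cells. miR-720, which is now regarded as a tRNA fragment, had a genotype difference of -0.74, and 24 h minus untreated differences of 1.21 in knockout and 0.67 in wild type cells. miR-148a had a genotype difference of -1.46, with 24 h minus untreated at -0.35 in knockout cells and near 0 in wild type cells. For miR-155, 24 h minus untreated was 1.33 in knockout cells, whose untreated arrays were close to the floor, and -0.16 in wild type cells.

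**Figure D5:**
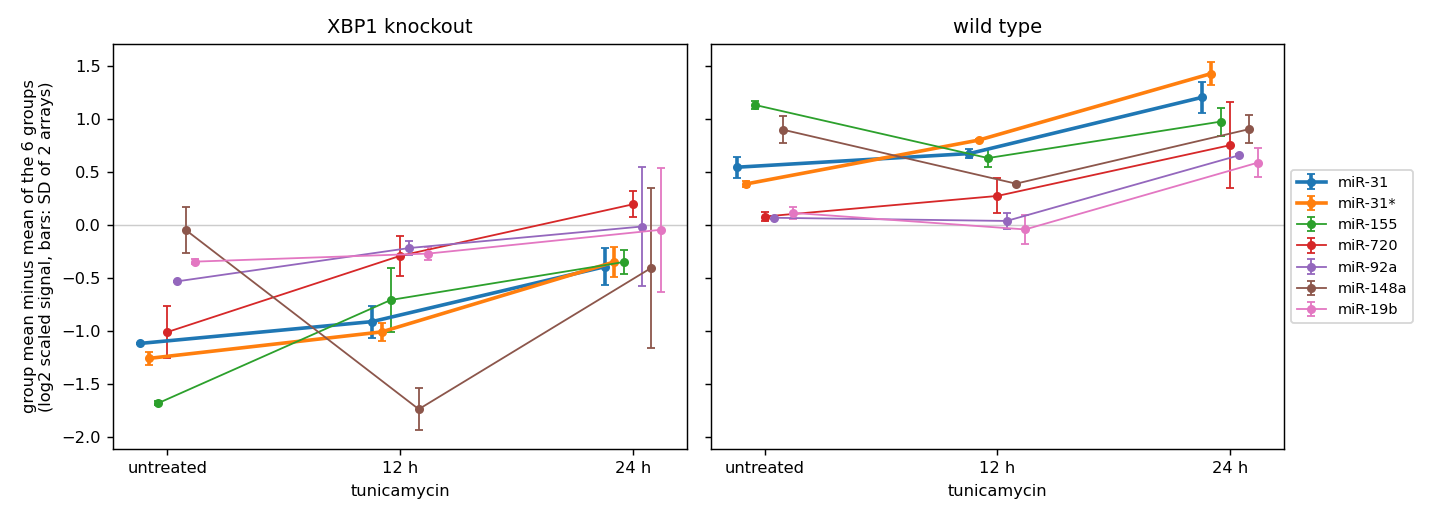
Group mean minus the mean of the 6 groups (log2 scaled signal) for both arms of miR-31 (thick lines) and the 5 miRNAs most like either, by tunicamycin time, in knockout cells on the left and wild type cells on the right; bars are the SD of 2 arrays. miR-31 and miR-31* run close together in both panels, while miR-155 and miR-148a depart from them at 12 h or in untreated cells.

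Other miRNAs of chromosome 4 had differences nearer to 0. Of the 9 others tested with a precursor there by RefSeq name, 7 had a mean knockout minus wild type difference below 0, against 159 of all 256 miRNAs, with a median of -0.18. Knockout arrays below wild type arrays without overlap in all 3 conditions were found for 0 of the 9, against 25 of all 256 (9.77%). Only 4 of the 9 were above the floor on every array, so nothing is read from this 0. The nearest in position, miR-872, had a mean difference of -0.18 (SE 0.20). miR-101a, which was at the floor on some arrays, had -0.54 (SE 0.19), miR-30e -0.47 (SE 0.19) and miR-30c, also made from a second locus elsewhere, 0.16 (SE 0.10). The starred arms miR-872* and miR-30e*, both at the floor on some arrays, had -0.01 and -0.42.

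Marker miRNAs were set beside the result because miR-31 is also known from other cell types. Of 15 fibroblast and mesenchymal markers on the array, 11 were detected on all arrays. Summed scaled signals of the whole list were between 15878 and 32340 on knockout and between 16348 and 25864 on wild type arrays. The brightest, miR-21, miR-125b-5p, miR-22 and miR-199a-3p, were detected on 12 of 12 arrays. Among 14 of these markers tested, 2 had a mean knockout minus wild type difference below 0, with a median of 0.34.

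Of 10 epithelial and keratinocyte markers, 7 were detected on no array, among them those of the miR-200 family, miR-203 and miR-205. The remaining 3 were miR-96, miR-183 and miR-182. Summed scaled signals of the whole list, markers not detected included, were between 212 and 318 on knockout and between 181 and 281 on wild type arrays. Of 7 blood cell markers, 6 were detected on no array and the other was miR-155. The sums of this list, which include signal of markers not detected, were 15.3 to 33.5 on knockout and 58.8 to 85.4 on wild type arrays. Of 2 endothelial markers, 0 passed the filter for the fit. Of the 4 muscle, 6 neural and 8 pluripotent markers, 3, 2 and 6 were detected on no array, and the summed scaled signals of each list overlapped between the genotypes, at most 77.9 on knockout against 104 on wild type arrays for muscle, 78.3 against 75.8 for neural and 204 against 271 for pluripotent markers. In bulk cultures, fewer cells of a type and less RNA per cell cannot be told apart, and whether the mixture of cells has a part in the miR-31 difference was not tested.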

How the data were processed

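Total RNA (mirVana kit) was labelled with Cy3 and hybridised to 1-colour Agilent miRNA arrays, per the labels' protocols. Each array's deposited scanner file gives the intensity of every spot, from Agilent Feature Extraction 10.7.1.1, background-subtracted and not normalized between arrays, per the file headers. The authors' deposited series table holds log2 values per miRNA; these differed from log2 of the total gene signal that the software wrote by at most 1.15e-06, so they were not normalized either. Its direction and scale are thus known, it is not centred, and its column medians ran from 5.38 to 7.45. From the spots, control and outlier-flagged ones were left out, spots averaged per probe, probes summed per miRNA, and arrays scaled by the 75th percentile of 95 miRNAs detected on all arrays. Signals were floored at the 5th percentile of detected scaled signals (10.0) and log2 taken. limma 3.58.1 (R 4.3.3) fitted 1 mean per group with 6 residual degrees of freedom to the 256 mouse miRNAs that some group had detected on both its arrays; SE and 95% intervals are moderated. The fit was run on simulated data whose arrays had independent errors, so this does not check the errors for arrays that share a scan. The number of arrays limits precision.

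The members and all lists were chosen with earlier results of these data known. Besides both arms, the text names the 5 miRNAs most like each, the 3 largest stable genotype differences each way, the 6 nearest tested miRNAs on the chromosome, 4 arm pairs and up to 4 brightest markers per list. Replicate numbers pair arrays through shared scans, per the scan date and slide barcode in the file headers. Deviations of same-numbered arrays correlated at 0.87 untreated, 0.42 at 12 h and 0.52 at 24 h between the genotypes. Between 12 h and 24 h arrays that shared a scan they correlated at only -0.08 in knockout and 0.18 in wild type cells. Across genotypes they did so at 0.02 (12 h knockout with 24 h wild type) and 0.10 (24 h knockout with 12 h wild type). RefSeq names matched 576 of 611 mouse miRNAs.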

Additional observations from a re-analysis of the deposited data

How the results depend on the processing

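Knockout minus wild type was below 0 for both arms in every condition under all 15 alternatives and all 12 fits without 1 array. Some of these could not change the members' differences, only their errors. They were the 2 blocks, the fit to the arrays of a comparison alone, the fit to miRNAs detected on all arrays, and the fit without a floor. Leaving out an array outside a comparison also left its difference as it was. The sign of tunicamycin minus untreated depended on the scaling. The difference between responses is the knockout response minus the wild type response. Log2 values that moved are given by setting, in the order untreated, 12 h and 24 h for genotype and 12 h and 24 h for treatment. Without scaling, knockout minus wild type was -0.92, -1.09 and -0.82 for miR-31 and -0.90, -1.31 and -1.004 for miR-31*, and tunicamycin minus untreated was -1.59 and -1.39 (knockout) and -1.42 and -1.49 (wild type) for miR-31 and -1.55 and -1.21 (knockout) and -1.13 and -1.10 (wild type) for miR-31*. Also without scaling, 24 h minus 12 h was 0.20 (knockout) and -0.0654 (wild type) for miR-31 and 0.34 and 0.032 for miR-31*, and the difference between responses at 12 h was -0.17 for miR-31 and -0.41 for miR-31*. In the deposited table as it stands, knockout minus wild type was -0.94, -1.08 and -0.80 for miR-31 and -0.93, -1.31 and -0.98 for miR-31*, and the treatment differences were -1.53 and -1.32 (knockout) and -1.39 and -1.47 (wild type) for miR-31 and -1.49 and -1.14 (knockout) and -1.11 and -1.09 (wild type) for miR-31*; 24 h minus 12 h was 0.21 (knockout) and -0.0741 (wild type) for miR-31 and 0.35 and 0.024 for miR-31*, and the difference between responses at 12 h was -0.14 for miR-31 and -0.38 for miR-31*. With the 75th percentile over all mouse miRNAs, knockout minus wild type was -1.27, -1.45 and -1.13 for miR-31 and -1.26, -1.68 and -1.31 for miR-31*, and the treatment differences were -0.63 and 0.95 (knockout) and -0.45 and 0.80 (wild type) for miR-31 and -0.59 and 1.13 (knockout) and -0.16 and 1.18 (wild type) for miR-31*; 24 h minus 12 h was 1.58 (knockout) and 1.25 (wild type) for miR-31 and 1.72 and 1.35 for miR-31*, and the difference between responses at 12 h was -0.18 for miR-31 and -0.42 for miR-31*. With quantile normalization, knockout minus wild type was -1.16 at 12 h and -1.43 at 24 h for miR-31 and -1.56 untreated and -1.70 at 12 h for miR-31*; the 12 h treatment differences were -0.54 (knockout) and -0.97 (wild type) for miR-31 and -0.54 and -0.41 for miR-31*, and at 24 h those of miR-31* were 0.998 (knockout) and 1.17 (wild type), 24 h minus 12 h was 1.36 (knockout) and 1.64 (wild type) for miR-31 and 1.54 and 1.58 for miR-31*, and the difference between responses at 12 h was 0.43 for miR-31. With median scaling, miR-31* at 12 h was -1.71 in knockout minus wild type, the 12 h treatment differences were 0.69 (knockout) and 0.44 (wild type) for miR-31 and 0.74 and 0.73 for miR-31*, and at 24 h in knockout cells 0.89 and 1.08; 24 h minus 12 h was 0.20 (knockout) and 0.29 (wild type) for miR-31 and 0.34 and 0.38 for miR-31*, and the difference between responses was 0.25 at 12 h for miR-31 and 0.0084 at 12 h and -0.036 at 24 h for miR-31*. With total mouse signal scaling, chosen after seeing the data, knockout minus wild type was -1.77 untreated and -1.57 at 12 h for miR-31* and -1.35 at 12 h for miR-31; the 12 h treatment difference of miR-31* was 0.13 (knockout) and -0.062 (wild type), and that of miR-31 in wild type cells -0.35; 24 h minus 12 h was 0.72 (knockout) and 0.98 (wild type) for miR-31 and 0.87 and 1.08 for miR-31*, and the difference between responses was 0.43 at 12 h for miR-31 and 0.19 at 12 h and -0.020 at 24 h for miR-31*. With the software's total gene signal, knockout minus wild type at 12 h was -1.76 for miR-31 and -1.98 for miR-31*, and the treatment differences were 0.021 and 0.54 (knockout) for miR-31, 0.065 and 0.72 (knockout) for miR-31*, and 0.39 and 0.77 at 24 h (wild type); 24 h minus 12 h in wild type cells was 0.33 for miR-31 and 0.43 for miR-31*, and the difference between responses of miR-31* at 12 h was -0.28. With normexp background correction, on median spot signal since the files used here hold no mean (chosen after seeing the data), knockout minus wild type was -1.41, -0.999 and -1.04 for miR-31 and -1.19, -0.91 and -0.90 for miR-31*, and the treatment differences were 0.59 and 0.90 (knockout) and, at 24 h, 0.53 (wild type) for miR-31, and 1.01 and 1.32 (knockout) and, at 12 h, 0.73 (wild type) for miR-31*. Also with normexp, 24 h minus 12 h was 0.32 (knockout) and 0.35 (wild type) for miR-31 and 0.31 and 0.30 for miR-31*, and the difference between responses was 0.41 at 12 h and 0.38 at 24 h for miR-31 and 0.28 and 0.28 for miR-31*. The arm difference with normexp was, in knockout minus wild type, 0.23 untreated, 0.093 at 12 h and 0.13 at 24 h, in 12 h minus untreated 0.42 (knockout) and 0.56 (wild type), and in 24 h minus untreated 0.41 (knockout). The cause of these shifts was not tested.

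The number of miRNAs with knockout arrays below wild type arrays in all 3 conditions was 25 of 256 (9.77%) in the main fit. It was 5 with the percentile over all mouse miRNAs and 9 with quantile normalization. With normexp, where the median difference over all miRNAs tested moved down, it was 134. Nothing about the members is read from these counts. Without 1 array the number was between 25 and 42, the 42 without the second 24 h knockout array. Without 1 array, knockout minus wild type at 24 h ran from -1.72 to -1.47 for miR-31 and from -1.88 to -1.68 for miR-31*, and 24 h minus untreated in knockout cells from 0.60 to 0.85 and from 0.81 to 1.01. Likewise 24 h minus 12 h in knockout cells ran from 0.39 to 0.64 for miR-31 and from 0.56 to 0.76 for miR-31*, and the difference between responses at 24 h from -0.060 to 0.19 and from -0.23 to -0.030. The replicate block left every difference of the members as it was, with a SE of 0.14 for miR-31 and 0.13 for miR-31* in the genotype differences at each time; with the scan as a block, chosen after seeing the data, they were 0.14 and 0.12. A slide block was not run, since the slide cannot be told apart from treatment.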
